A study of Mus musculus with 20 samples.

Results

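Transcripts of the MHC class I pathway were followed in mouse bone marrow-derived macrophages (BMDMs) exposed to fractionated airway fluid. The 10 genes described were chosen by name: the heavy chains H2-K1, H2-D1, H2-Q4, H2-Q7 and H2-T23, the light chain B2m, the peptide transporter and loading genes Tap1, Tap2 and Tapbp, and the transcriptional activator Nlrc5. Each matched 1 of the 78409 rows of the expression table, and all 10 passed the filter on low counts in every comparison.

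BMDMs were grown from the marrow of female C57BL/6J mice, were labelled wildtype in all 20 libraries and were used on day 7 of culture at 200000 cells per well. They were given PBS or a fraction of bronchoalveolar lavage fluid (BALF) from mice with ovalbumin (OVA) airway inflammation, with 4 libraries in each of 5 groups. The donors of the fluid were either RNY1+/+ or RNY1-/-, the second carrying a CRISPR deletion of the Y RNA gene RNY1. From each genotype came an EV-enriched fraction (EVFx, pooled size exclusion fractions 1 to 4, added at 35000000 particles per µL) and a Protein-enriched fraction (ProteinFx, pooled fractions 9 to 20, added at 0.75 µg protein per µL). All 4 fractions were stored for 5 days, and all 5 groups shared the medium without serum. The genotype therefore differed in the source of the fluid and never in the macrophages, and particle and protein doses were set on different scales, so that EVFx and ProteinFx were not matched with each other. Nothing in the labels states that a group's libraries were separate cultures or came from separate fluid donors, so p-values measure the spread between these libraries, which may be technical.

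MHC class I molecules display short peptides from a cell's own proteins to CD8+ T cells. Peptides are cut by the proteasome, carried into the endoplasmic reticulum by the Tap1-Tap2 transporter, and loaded with the help of tapasin, the product of Tapbp, onto a heavy chain paired with β2-microglobulin, the product of B2m. H2-K1 and H2-D1 encode the classical heavy chains of C57BL/6 mice, and H2-Q4, H2-Q7 and H2-T23 encode nonclassical ones, with the H2-T23 product Qa-1 presenting leader peptides of other class I chains to receptors of natural killer cells. Nlrc5 is a member of the NLR family that activates transcription of class I genes, and interferons raise the expression of the whole pathway in macrophages.

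The libraries held 2510005 to 8277366 counts after collapse of molecular identifiers, with a median of 5456425. Macrophage markers summed to 8620 to 12968 CPM (each count scaled to a common library total) across the libraries, all 5 dendritic cell markers and 5 of 6 T cell markers were at or under 3 counts in every library, and the eosinophil marker Epx was at 0. Single macrophage markers moved both ways. Of 8, 2 were called higher and 4 lower with RNY1+/+ EVFx than with PBS, where 21.7% of all genes were called higher. With RNY1+/+ ProteinFx 4 were called higher and 3 lower, where 25.9% of all genes were called higher. The 5 listed airway epithelium markers summed to 2.42 to 16.8 CPM, with Sftpc at 0 and Krt8 reaching 12.9 CPM, and Krt8 was called between the genotypes in EVFx at 1.13 (log2). The 8 listed neutrophil markers summed to 269 to 329 CPM in PBS, 140 to 207 with RNY1+/+ EVFx, 181 to 263 with RNY1-/- EVFx, 197 to 321 with RNY1+/+ ProteinFx and 238 to 349 with RNY1-/- ProteinFx. Those sums rest largely on 2 genes, S100a8 and S100a9, which averaged 158 and 130 CPM in PBS. Of the 8 markers, 3 were at or under 3 counts throughout. Among the markers tested, 3 of 3 were called lower with RNY1+/+ EVFx than with PBS. In EVFx, 2 of 2, S100a8 (0.58) and S100a9 (0.52), were called higher with RNY1-/- than with RNY1+/+ fluid, where 25.5% of all genes were. The 5 listed eosinophil markers, 3 of them at or under 3 counts throughout, summed to 7.17 to 13.5 CPM in PBS, 0.801 to 2.46 CPM with EVFx and 12.4 to 21.1 CPM with ProteinFx. That difference rests largely on 1 gene, Ccr3, which averaged 8.47 CPM in PBS, 0.918 with RNY1+/+ EVFx and 15.9 with RNY1+/+ ProteinFx. The 4 listed fibroblast markers summed to 9.96 to 48.4 CPM, and 1 of them was called lower in each comparison with PBS. The part of these other cell types in the results was not tested. A pair of features of the libraries touch the results. The RNY1-/- ProteinFx libraries stood in 2 pairs, replicates 1 and 2 against replicates 3 and 4: the squared differences between replicates were 3.50 and 2.57 times the counting error within the pairs and 13.3 to 15.7 times across them. The libraries also differed in how their counts followed transcript GC content, with the most negative trends in PBS replicate 3 and RNY1-/- ProteinFx replicates 3 and 4. In bulk RNA fewer cells of a type and less RNA per cell cannot be told apart.

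All 4 fractions were associated with higher class I transcripts than PBS. A gene was called where its adjusted p was under 0.05 (edgeR's quasi-likelihood test, Benjamini-Hochberg adjustment over all genes tested), and called genes with an absolute log2 fold change above 1 were counted as differentially expressed genes (DEGs). With RNY1+/+ EVFx, 10 of the 10 genes were called higher, where 21.7% of all genes tested were, and 8 were DEGs, against 8.24% of all genes. With RNY1+/+ ProteinFx, 9 were called higher, against a background of 25.9%, and 8 were DEGs, against 8.96%. With RNY1-/- EVFx, 9 were called higher (background 27.6%) and 6 were DEGs (background 9.02%). With RNY1-/- ProteinFx, 9 were called higher (background 16.8%) and 7 were DEGs (background 6.32%). Without PBS replicate 3 the DEGs were 8, 6, 7 and 7 in the same order and the genes called 10, 9, 9 and 9. With RNY1-/- ProteinFx, 7 were called and 5 were DEGs without its replicates 1 and 2, and 9 and 8 without its replicates 3 and 4. The share of all genes called in these fits with libraries left out is not given here. No member was called lower in any of these 4 comparisons. The median log2 fold change of the 10 genes against PBS was 1.66 with RNY1+/+ EVFx, 1.40 with RNY1+/+ ProteinFx, 1.43 with RNY1-/- EVFx and 1.28 with RNY1-/- ProteinFx, while the median of all genes tested was -0.03 in each. The 4 comparisons share the PBS libraries, so they are not independent of each other.

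**Figure D1:**
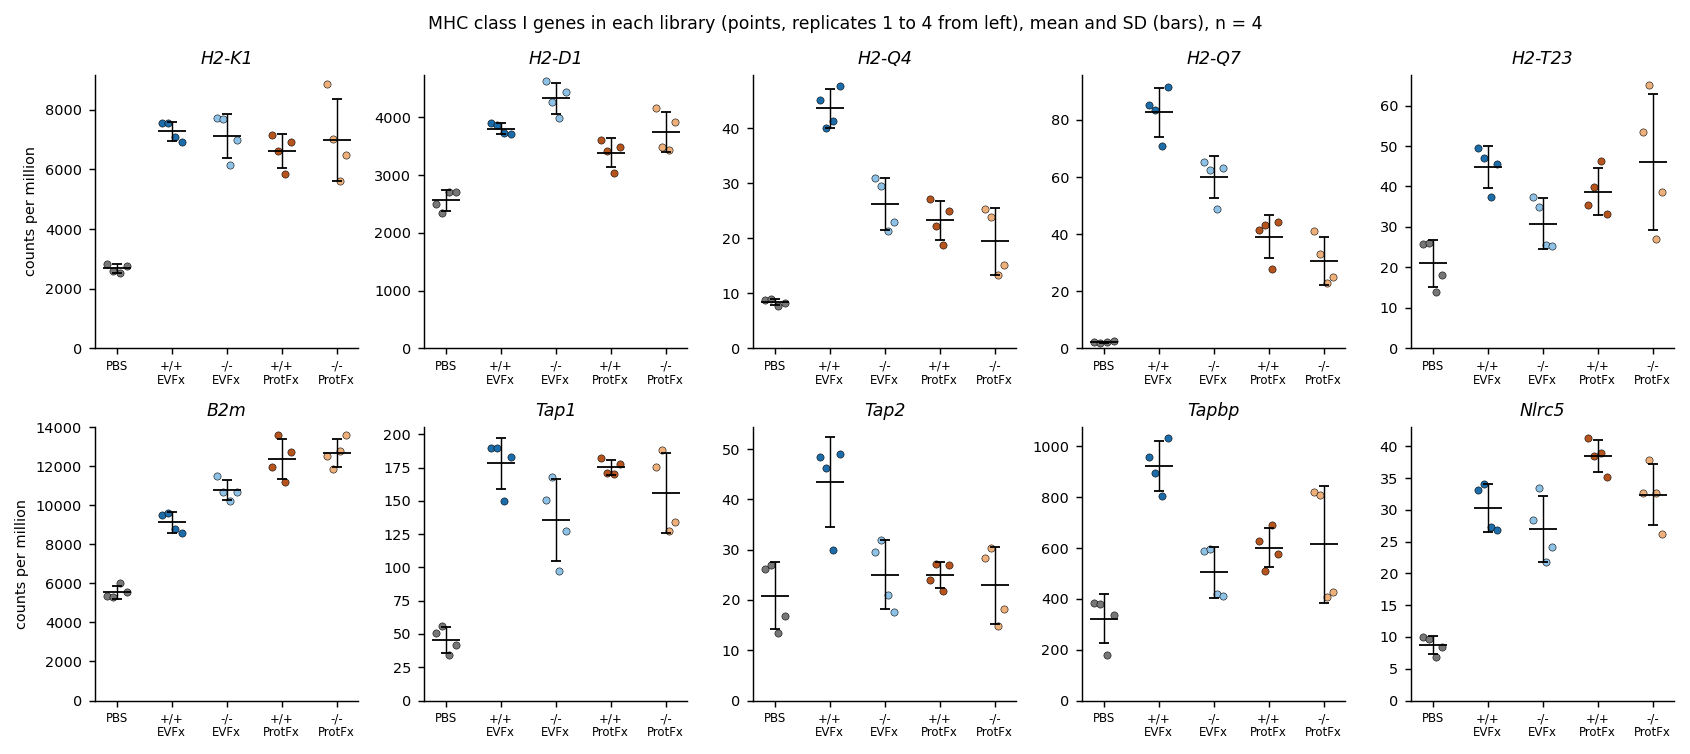
CPM of the 10 genes in each of the 20 libraries, by group (RNY1+/+ and RNY1-/- written as +/+ and -/-, ProteinFx as ProtFx), with the mean and SD over 4 libraries as bars. PBS libraries lie lowest for most genes, and H2-Q7 falls in steps from RNY1+/+ EVFx to RNY1-/- EVFx to both ProteinFx groups.

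H2-K1 (ENSMUSG00000061232), encoding the K heavy chain, was read at 2835, 2589, 2530 and 2762 CPM in the PBS libraries. The RNY1+/+ EVFx libraries held 7556, 7547, 7081 and 6907 CPM, those of RNY1-/- EVFx 7713, 7677, 6137 and 6992, those of RNY1+/+ ProteinFx 7164, 6601, 5829 and 6906, and those of RNY1-/- ProteinFx 8866, 7013, 5624 and 6482. The 16 libraries given a fraction all lay above the 4 PBS libraries, and the 4 fraction groups overlapped each other. Fold changes against PBS, as log2, were 1.62 ± 0.10 (SE, n = 4 libraries per group; adjusted p = 2.82e-07) with RNY1+/+ EVFx, 1.65 ± 0.11 (adjusted p = 5.96e-07) with RNY1-/- EVFx, 1.48 ± 0.11 (adjusted p = 1.08e-06) with RNY1+/+ ProteinFx and 1.45 ± 0.14 (adjusted p = 2.94e-05) with RNY1-/- ProteinFx.

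H2-D1 (ENSMUSG00000073411), encoding the D heavy chain, rose less. PBS libraries held 2497, 2344, 2712 and 2712 CPM, RNY1+/+ EVFx libraries 3906, 3865, 3737 and 3716, and RNY1-/- EVFx libraries 4630, 4270, 3992 and 4443. RNY1+/+ ProteinFx libraries held 3612, 3421, 3040 and 3488 CPM, and RNY1-/- ProteinFx libraries 4164, 3494, 3442 and 3921. No fraction group overlapped PBS, and the RNY1-/- EVFx group lay above RNY1+/+ EVFx without overlap. On the log2 scale, the changes were 0.75 ± 0.10 (adjusted p = 9.18e-05) with RNY1+/+ EVFx, 1.00 ± 0.11 (adjusted p = 1.85e-05) with RNY1-/- EVFx, 0.57 ± 0.11 (adjusted p = 0.00113) with RNY1+/+ ProteinFx and 0.62 ± 0.11 (adjusted p = 0.00254) with RNY1-/- ProteinFx, so H2-D1 was called in each and was a DEG in none, its value with RNY1-/- EVFx lying just under the threshold before rounding.

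The balance of the 2 classical heavy chains shifted with these changes. Within each library, the ratio of H2-K1 to H2-D1 counts was 0.933 to 1.14 in PBS. It was 1.86 to 1.95 with RNY1+/+ EVFx, 1.54 to 1.80 with RNY1-/- EVFx, 1.92 to 1.98 with RNY1+/+ ProteinFx and 1.63 to 2.13 with RNY1-/- ProteinFx. Every library given a fraction had a higher ratio than every PBS library. The ratio compares counts from 3′ end reads of different transcripts, so its change between groups can be read and its absolute value cannot.

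H2-Q7 (ENSMUSG00000060550), encoding the nonclassical Qa-2 antigen, had the largest fold changes among the 10 genes in each comparison with PBS. It was scarcely detected in PBS, at 2.15, 1.88, 2.1 and 2.42 CPM, with at least 9 counts in each library. It reached 85.1, 83.4, 70.9 and 91.4 CPM with RNY1+/+ EVFx, and 65.3, 62.5, 48.9 and 63.3 CPM with RNY1-/- EVFx. With RNY1+/+ ProteinFx it was at 41.5, 43.1, 27.8 and 44.1 CPM, and with RNY1-/- ProteinFx at 41.2, 33.0, 22.8 and 24.8 CPM. RNY1+/+ EVFx, RNY1-/- EVFx, RNY1+/+ ProteinFx and PBS followed each other in this order without overlap, and the 2 ProteinFx groups overlapped. The log2 fold changes against PBS were 5.43 ± 0.15 (adjusted p = 2.70e-09) with RNY1+/+ EVFx, 5.03 ± 0.17 (adjusted p = 7.31e-09) with RNY1-/- EVFx, 4.34 ± 0.21 (adjusted p = 2.20e-08) with RNY1+/+ ProteinFx and 3.88 ± 0.23 (adjusted p = 7.91e-07) with RNY1-/- ProteinFx.

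H2-Q4 (ENSMUSG00000035929), a second heavy chain gene of the Q region, showed a like order at smaller folds. Its PBS libraries held 8.81, 9.0, 7.68 and 8.22 CPM, against 45.2, 40.0, 41.4 and 47.8 with RNY1+/+ EVFx. RNY1-/- EVFx gave 30.9, 29.5, 21.4 and 23 CPM, RNY1+/+ ProteinFx 27.1, 22.3, 18.8 and 24.9, and RNY1-/- ProteinFx 25.3, 23.9, 13.4 and 15.2. The RNY1+/+ EVFx libraries lay above all others, and the other 3 fraction groups overlapped one another above PBS. Fold changes against PBS, as log2, were 2.54 ± 0.12 with RNY1+/+ EVFx (adjusted p = 4.48e-08), 1.88 ± 0.15 with RNY1-/- EVFx (adjusted p = 2.25e-06), 1.63 ± 0.16 with RNY1+/+ ProteinFx (adjusted p = 7.08e-06) and 1.29 ± 0.20 with RNY1-/- ProteinFx (adjusted p = 0.000988).

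H2-T23 (ENSMUSG00000067212), which encodes Qa-1, spread more within its groups. PBS libraries held 25.8, 25.9, 14 and 18.2 CPM, RNY1+/+ EVFx libraries 49.4, 46.9, 37.3 and 45.6, and RNY1-/- EVFx libraries 37.4, 34.9, 25.6 and 25.3. RNY1+/+ ProteinFx libraries held 35.5, 39.9, 46.4 and 33.2 CPM, and RNY1-/- ProteinFx libraries 53.5, 65.1, 26.9 and 38.6. The RNY1-/- EVFx group overlapped PBS, and the other 3 fraction groups did not. On the log2 scale, the changes were 1.27 ± 0.19 (adjusted p = 0.000226) with RNY1+/+ EVFx, 0.79 ± 0.21 (adjusted p = 0.00656) with RNY1-/- EVFx, 1.04 ± 0.19 (adjusted p = 0.000972) with RNY1+/+ ProteinFx and 1.21 ± 0.27 (adjusted p = 0.00708) with RNY1-/- ProteinFx. Without replicates 1 and 2 of RNY1-/- ProteinFx, that last value was 0.78 and was no longer called.

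Heavy chain genes are near-identical in parts, and reads that map to several of them were shared out as fractions. Fractional counts stood in 18 of 20 libraries for H2-Q7, 19 for H2-T23, 17 for H2-D1, 16 for H2-Q4 and 7 for H2-K1, so that values of single heavy chain genes are uncertain where reads could be split. With the counts of all 37 class I heavy chain entries summed as 1 feature, the log2 fold change against PBS was 1.37 with RNY1+/+ EVFx, 1.45 with RNY1-/- EVFx, 1.17 with RNY1+/+ ProteinFx and 1.13 with RNY1-/- ProteinFx, each called. H2-K1 and H2-D1 held 87.3% to 97.0% of these summed counts.

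Because the heavy chains rose together, their promoters were compared. The RefSeq windows (GRCm38.p6) run from 250 bases before to 50 after a gene's start, and 8 of the 10 genes had an entry, all but Tap2 and Nlrc5. In the 4 heavy chain genes of the K, D and Q regions a match to the NF-kB consensus was followed after 10 bases by a match to the core of the interferon-stimulated response element (GAANNGAAA, read here on the opposite strand). The stretches below, each of 70 bases, begin 10 bases before the NF-kB match, with both matches in capitals, and the B2m stretch is set beside them because it holds the first match without the second.
H2-K1 (chr17:34000399-34000468, minus strand): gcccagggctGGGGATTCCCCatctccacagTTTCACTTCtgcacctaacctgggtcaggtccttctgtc
H2-D1 (chr17:35262913-35262982, plus strand): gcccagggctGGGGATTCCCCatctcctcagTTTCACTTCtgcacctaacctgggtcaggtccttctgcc
H2-Q4 (chr17:35379433-35379502, plus strand): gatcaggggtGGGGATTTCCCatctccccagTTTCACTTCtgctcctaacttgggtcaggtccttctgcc
H2-Q7 (chr17:35439012-35439081, plus strand): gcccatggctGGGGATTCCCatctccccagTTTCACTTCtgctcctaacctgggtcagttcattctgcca
B2m (chr2:122147551-122147620, plus strand): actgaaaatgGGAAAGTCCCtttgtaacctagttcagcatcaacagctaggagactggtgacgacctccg

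Across both strands, the NF-kB consensus matched 8.46% of all 32851 promoter windows and 5 of the 8 members, and GAANNGAAA matched 7.52% of windows and 4 of the 8. The windows of H2-T23, Tap1 and Tapbp held neither. TGACGC and TGACGT are core letters of sites bound by CREB and ATF factors. The first matched 7.40% of windows and the members H2-K1, H2-D1 and H2-Q4, and the second 7.51% of windows and the members H2-Q4 and H2-Q7. CCAAT, the core of the Y box, matched 37.4% of windows and all 8 members. These matches describe letters in a window and not bound sites, and the H2-K1 and H2-D1 stretches have the same letters in both capitalised matches although H2-K1 had the larger fold changes against PBS.

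B2m (ENSMUSG00000060802), the light chain that all class I heavy chains share, followed another order of groups. PBS libraries held 5357, 5280, 6024 and 5539 CPM. RNY1+/+ EVFx libraries held 9511, 9622, 8774 and 8580 CPM, RNY1-/- EVFx libraries 11520, 10705, 10239 and 10672, RNY1+/+ ProteinFx libraries 11949, 13586, 11212 and 12737, and RNY1-/- ProteinFx libraries 12535, 11873, 12768 and 13600. All 16 libraries with a fraction lay above PBS, and the RNY1+/+ EVFx libraries, highest for H2-Q4 and H2-Q7, were the lowest of the fraction groups for B2m, without overlap. The log2 fold changes were 0.89 ± 0.10 (adjusted p = 2.95e-05) with RNY1+/+ EVFx, 1.20 ± 0.10 (adjusted p = 2.84e-06) with RNY1-/- EVFx, 1.33 ± 0.11 (adjusted p = 2.10e-06) with RNY1+/+ ProteinFx and 1.27 ± 0.11 (adjusted p = 1.97e-05) with RNY1-/- ProteinFx.

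The ratio of B2m counts to the summed heavy chain counts was 0.967 to 1.11 in PBS. It was lower with EVFx, at 0.705 to 0.767 for RNY1+/+ and 0.828 to 0.919 for RNY1-/-, and neither range overlapped PBS or the other. With ProteinFx it was 1.04 to 1.26 for RNY1+/+ and 0.917 to 1.33 for RNY1-/-, which overlapped PBS. The summed heavy chain transcripts thus rose more than B2m transcripts with EVFx, while no such shift was separable from the spread with ProteinFx. Singly, H2-K1, H2-Q4 and H2-Q7 rose more than B2m with both EVFx groups. H2-D1 rose less, at 0.75 (RNY1+/+) and 1.00 (RNY1-/-) against 0.89 and 1.20 for B2m (log2). H2-T23 rose more with RNY1+/+ EVFx (1.27) and less with RNY1-/- EVFx (0.79). The ratio kept each library's GC trend, whose part in it was not tested. With RNY1+/+ ProteinFx against PBS, alternative fits ran from 1.31 to 1.82 for H2-K1 and 1.04 to 1.38 for B2m. B2m was the only member with a GC-poor transcript, at 41.2% GC against 52.1% to 57.1% for the other 9, a difference that returns below.

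**Figure D2:**
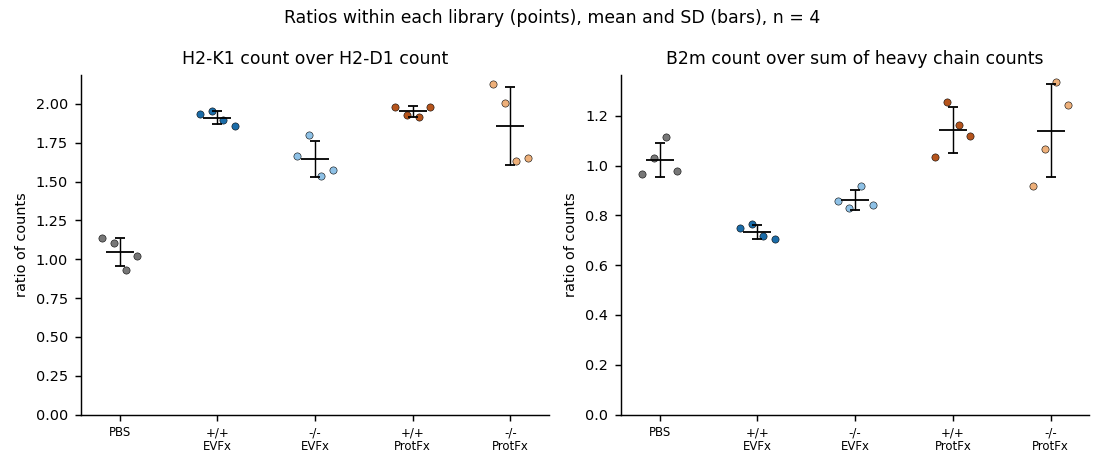
Ratio of H2-K1 to H2-D1 counts (left) and of B2m to summed heavy chain counts (right) in each library, with mean and SD over 4 libraries. The left ratio is near 1.05 in PBS and 1.64 to 1.95 on average with the fractions, and the right ratio is lowest with RNY1+/+ EVFx, at 0.735 on average.

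Tap1 (ENSMUSG00000037321), 1 of the 2 chains of the peptide transporter, rose in all 4 comparisons. PBS libraries held 51.0, 56.1, 34.3 and 41.6 CPM, RNY1+/+ EVFx libraries 190, 190, 150 and 183, and RNY1-/- EVFx libraries 151, 168, 97.0 and 127. RNY1+/+ ProteinFx libraries held 182, 171, 170 and 177 CPM, and RNY1-/- ProteinFx libraries 175, 188, 127 and 134. No fraction group overlapped PBS, and among the fraction groups only RNY1-/- EVFx and RNY1+/+ ProteinFx did not overlap, by a gap of 168 to 170 CPM. Fold changes against PBS, as log2, were 2.14 ± 0.15 (adjusted p = 1.02e-06) with RNY1+/+ EVFx, 1.81 ± 0.19 (adjusted p = 1.59e-05) with RNY1-/- EVFx, 2.1 ± 0.15 (adjusted p = 4.73e-07) with RNY1+/+ ProteinFx and 1.83 ± 0.18 (adjusted p = 3.44e-05) with RNY1-/- ProteinFx.

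Tap2 (ENSMUSG00000024339), the other chain of the transporter, did not rise with it in every group. PBS libraries held 26.2, 26.9, 13.5 and 16.9 CPM, and RNY1+/+ EVFx libraries 48.5, 46.3, 30.0 and 49.0. RNY1-/- EVFx libraries held 29.6, 32.0, 20.9 and 17.7 CPM, RNY1+/+ ProteinFx libraries 23.9, 27.1, 21.9 and 26.9, and RNY1-/- ProteinFx libraries 28.3, 30.4, 14.7 and 18.2. Only RNY1+/+ EVFx was separate from PBS. The log2 fold change was 1.23 ± 0.23 (adjusted p = 0.00110) with RNY1+/+ EVFx, and it missed the threshold at 0.50 ± 0.24 (adjusted p = 0.0944) with RNY1-/- EVFx, 0.42 ± 0.21 (adjusted p = 0.107) with RNY1+/+ ProteinFx and 0.21 ± 0.27 (adjusted p = 0.546) with RNY1-/- ProteinFx. Whether Tap2 passed in the last 3 depended on the fit. With each library's trends with transcript length and GC content removed, the Tap2 values were 0.95, 0.87 and 0.63 in the same order, each called, and with the replicate number as a block, which paired the libraries of RNY1-/- EVFx and PBS, its value of 0.50 there was called. Tap2 and Tapbp have the most GC-rich transcripts of the 10 genes, at 56.9% and 57.1%.

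Tapbp (ENSMUSG00000024308), which encodes tapasin, the bridge between the transporter and the empty heavy chain, was higher with each fraction. PBS libraries held 385, 381, 180 and 337 CPM, RNY1+/+ EVFx libraries 960, 896, 804 and 1034, and RNY1-/- EVFx libraries 587, 596, 421 and 412. RNY1+/+ ProteinFx libraries held 627, 509, 691 and 576 CPM, and RNY1-/- ProteinFx libraries 819, 808, 406 and 427. The last group split into its pairs, and no fraction group overlapped PBS. On the log2 scale, the changes were 1.70 ± 0.21 (adjusted p = 6.47e-05) with RNY1+/+ EVFx, 0.89 ± 0.22 (adjusted p = 0.00554) with RNY1-/- EVFx, 1.07 ± 0.21 (adjusted p = 0.00137) with RNY1+/+ ProteinFx and 0.99 ± 0.28 (adjusted p = 0.0219) with RNY1-/- ProteinFx. The RNY1-/- ProteinFx value was not called without its replicate 1 (0.84), without its replicate 2 (0.85) or without both (0.50), and was 1.37 and called without replicates 3 and 4.

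Nlrc5 (ENSMUSG00000074151), the activator of class I transcription, was at 10, 9.73, 6.86 and 8.36 CPM in PBS. RNY1+/+ EVFx libraries held 33.1, 34, 27.2 and 26.8 CPM, RNY1-/- EVFx libraries 28.4, 33.5, 21.8 and 24.2, RNY1+/+ ProteinFx libraries 41.3, 38.5, 39.0 and 35.2, and RNY1-/- ProteinFx libraries 32.7, 37.9, 32.7 and 26.2. All 16 lay above PBS, with RNY1+/+ ProteinFx highest and separate from both EVFx groups. The log2 fold changes were 1.96 ± 0.15 (adjusted p = 1.97e-06) with RNY1+/+ EVFx, 1.86 ± 0.17 (adjusted p = 5.56e-06) with RNY1-/- EVFx, 2.29 ± 0.14 (adjusted p = 1.97e-07) with RNY1+/+ ProteinFx and 1.94 ± 0.17 (adjusted p = 1.44e-05) with RNY1-/- ProteinFx. H2-K1, H2-Q4, H2-Q7, Tap1, Tap2 and Tapbp were highest on average with RNY1+/+ EVFx. Of these, H2-K1, Tap1, Tap2 and Tapbp overlapped the next group. Over the 20 libraries the Pearson r of Nlrc5 with another member ran from 0.491 (Tap2) to 0.978 (Tap1). The part of Nlrc5 in the changes of the other members was not tested.

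In the mouse annotation of the GRCm38 build, all 10 genes are protein-coding. B2m is on chromosome 2 (122147686 to 122153083). The 8 genes of the H2 complex lie on chromosome 17: Tapbp (33915899 to 33929292), H2-K1 (33996017 to 34000347), Tap1 (34187553 to 34197225), Tap2 (34203527 to 34216321), H2-D1 (35262730 to 35267499), H2-Q4 (35379617 to 35385290), H2-Q7 (35439155 to 35443773) and H2-T23 (36029773 to 36032855). Nlrc5 lies on chromosome 8 (94434356 to 94527272). Within the complex, neighbours in position such as Tap1 and Tap2 differed in their changes as described.

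**Figure D3:**
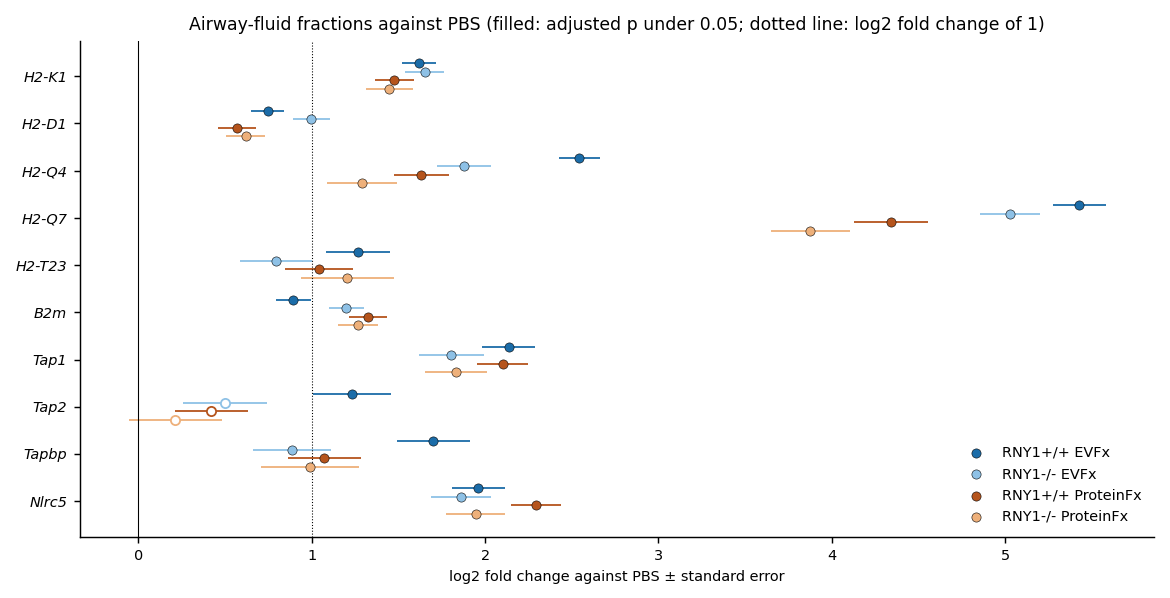
Log2 fold changes of the 10 genes against PBS with their standard errors, one point per fraction group, filled where the adjusted p was under 0.05. H2-Q7 stands at 3.88 to 5.43, and the 3 open points are those of Tap2.

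The effect of RNY1 in the source of the fluid was asked by comparing the genotypes within each fraction. In EVFx, 0 of the 10 genes were DEGs (2.33% of all genes tested were), while 2 were called higher with RNY1-/- fluid, against 25.5% of all genes, and 5 lower, against 26.6%. H2-D1 was higher by 0.26 ± 0.08 (adjusted p = 0.0128) and B2m by 0.31 ± 0.08 (adjusted p = 0.00599). Lower were Tapbp at -0.81 ± 0.12 (adjusted p = 0.000323), Tap2 at -0.72 ± 0.18 (adjusted p = 0.00460), H2-Q4 at -0.65 ± 0.11 (adjusted p = 0.000626), H2-T23 at -0.46 ± 0.12 (adjusted p = 0.00826) and H2-Q7 at -0.39 ± 0.10 (adjusted p = 0.00723). Tap1 at -0.32 ± 0.13 (adjusted p = 0.0605), Nlrc5 at -0.09 ± 0.13 (adjusted p = 0.581) and H2-K1 at 0.04 ± 0.09 (adjusted p = 0.709) did not pass. The sum of the heavy chain entries was at 0.09 (adjusted p = 0.408). The calls among the members stood beside a background in which about as many genes were called in each direction.

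Tap2, Tapbp and the 3 nonclassical heavy chains were thus the members called lower with RNY1-/- EVFx, and GC content moved with that comparison. Across all genes tested with a known transcript, the log2 fold change between the genotypes fell with GC content (Spearman rho -0.654, a description over genes, which are not independent). With length and GC trends removed from each library, H2-Q4 (-0.27) and Tapbp (-0.33) were still called lower, while H2-Q7 (-0.18), Tap2 (-0.26) and H2-T23 (-0.08) were not, and B2m (0.03) was no longer called higher. H2-D1 was then higher by 0.69 and H2-K1 by 0.40, both called. In that fit 16.9% of all genes were called higher and 16.3% lower. Whether this GC trend between the genotypes was made in the libraries or in the cells cannot be told apart here, since that difference runs with the groups. Libraries of the same group also differed in their GC trend around the group mean, at 0.627 in PBS replicate 2 and -0.643 in PBS replicate 3. Fold changes moved with GC content in other comparisons too. Against PBS the rho was -0.458 with RNY1+/+ ProteinFx, -0.424 with RNY1-/- EVFx, -0.495 with RNY1-/- ProteinFx and -0.0935 with RNY1+/+ EVFx. It was -0.493 for RNY1+/+ ProteinFx against RNY1+/+ EVFx and 0.585 for the interaction. Between the genotypes in ProteinFx it was 0.155, and for RNY1-/- ProteinFx against RNY1-/- EVFx 0.0657.

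In ProteinFx, 0 of the 10 genes were called between the genotypes, where 2.19% of all genes were called higher and 3.36% lower, and 0 were DEGs (1.82% of all genes). The values ran from -0.44 ± 0.19 for H2-Q7 (adjusted p = 0.215) through -0.33 ± 0.12 for Nlrc5 (adjusted p = 0.150), -0.31 ± 0.19 for H2-Q4 (adjusted p = 0.402) and -0.25 ± 0.12 for Tap1 (adjusted p = 0.266) to 0.20 ± 0.20 for H2-T23 (adjusted p = 0.668). H2-K1, H2-D1, B2m, Tap2 and Tapbp lay between -0.18 and 0.06. At an unadjusted p under 0.05 there were 2, H2-Q7 and Nlrc5, and DESeq2 called 0. These misses do not show that the genotypes acted alike, and the result depended on the 2 pairs of RNY1-/- ProteinFx libraries. Without replicates 1 and 2 of that group, H2-Q7 (-0.75), H2-Q4 (-0.72), Tap2 (-0.62), Tapbp (-0.56) and Tap1 (-0.46) were called, all 5 lower, in a fit that called 8.33% of all genes in either direction. Without replicates 3 and 4, none of these 5 was called, and H2-T23 was called, higher at 0.49, in a fit that called 27.7% of all genes in either direction. Both alternatives were chosen after seeing the data.

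**Figure D4:**
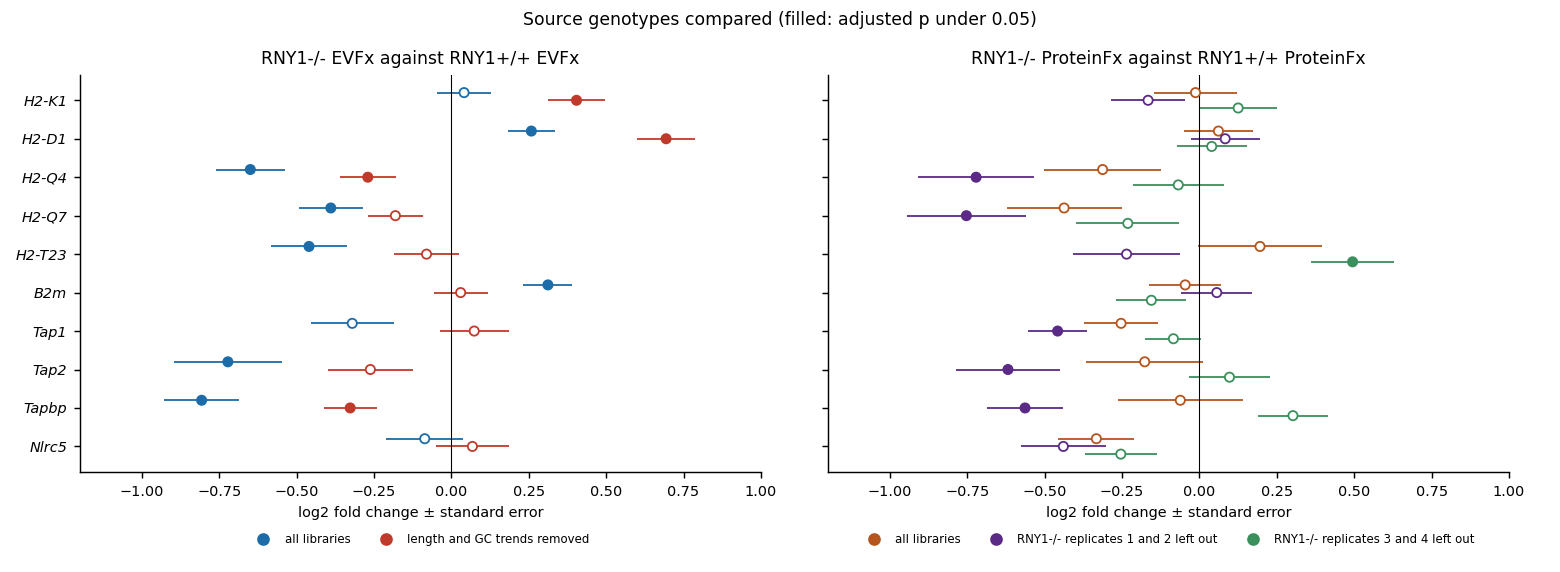
Log2 fold changes of the 10 genes between source genotypes in EVFx (left, with all libraries and with length and GC trends removed) and in ProteinFx (right, with all libraries and without each pair of RNY1-/- libraries), with standard errors, filled where the adjusted p was under 0.05. On the right, every point for all libraries is open, and leaving out replicates 1 and 2 fills 5 points below 0.

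The pairs were seen in the values of some members, such as Tapbp, Tap2 and H2-Q4, and not in those of others, such as H2-D1 and Nlrc5. Across all 20 libraries, the deviation of Tapbp from its group mean on the log2 CPM scale had a Pearson r of 0.902 with the library's trend with GC content, which was the Spearman rho over 10308 genes between GC content and the deviation of each gene. The r was 0.84 for H2-T23, 0.816 for Tap2, 0.729 for Tap1, 0.626 for H2-Q4, 0.527 for Nlrc5, 0.299 for H2-K1, 0.247 for H2-Q7, -0.419 for H2-D1 and -0.705 for B2m, as descriptions of 20 libraries that share 5 group means. The GC trend was 0.493 and 0.54 in RNY1-/- ProteinFx replicates 1 and 2 and -0.498 and -0.439 in replicates 3 and 4, and -0.643 in PBS replicate 3, where Tapbp, Tap1, Tap2, H2-T23 and Nlrc5 were each lowest among the PBS libraries. H2-Q7, the member of largest fold changes, was among the least tied to this trend.

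**Figure D5:**
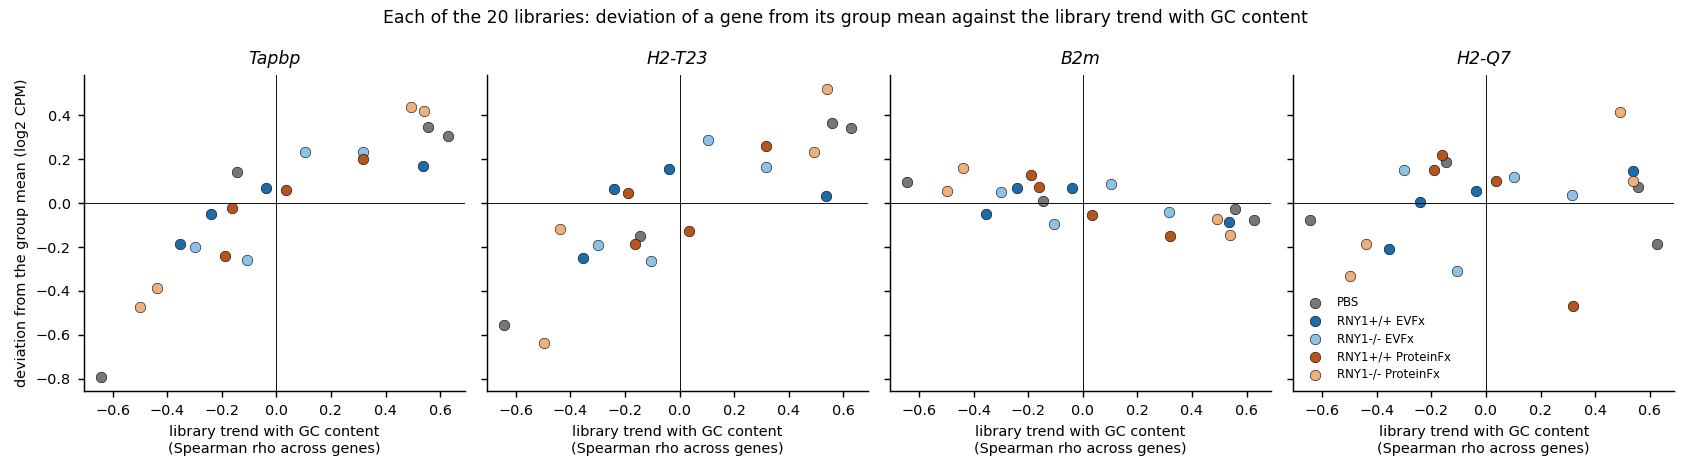
Deviation of Tapbp, H2-T23, B2m and H2-Q7 from the group mean (log2 CPM) in each of the 20 libraries, against the library's trend with transcript GC content (Spearman rho across genes). Tapbp and H2-T23 rise along the trend (r = 0.902 and 0.84), B2m falls (r = -0.705), and H2-Q7 shows little of it (r = 0.247).

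Whether the genotype difference itself differed between the fractions was tested as an interaction over the 16 libraries given a fraction. Of the 10 genes, 2 were called, against 33.0% of all genes tested. The genotype difference (RNY1-/- over RNY1+/+) in ProteinFx minus that in EVFx was 0.75 ± 0.26 on the log2 scale for Tapbp (adjusted p = 0.0346) and -0.36 ± 0.13 for B2m (adjusted p = 0.0477), and H2-T23 fell just outside at 0.67 ± 0.25 (adjusted p = 0.0503). These calls rest on few libraries. That of B2m was lost on leaving out any 1 of 12 of the 16 libraries, and that of Tapbp on leaving out any 1 of 8. With length and GC trends removed, Tapbp stood at 0.23 and B2m at -0.05, neither called, and H2-K1 (-0.44) and H2-D1 (-0.62) were called in their place.

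EVFx and ProteinFx were also set against each other within a genotype, although their doses were set on different scales. With RNY1+/+ fluid, 4 of the 10 genes were called lower with ProteinFx than with EVFx (32.2% of all genes were) and 2 higher (31.0% of all genes), and 1 was a DEG (6.78% of all genes were DEGs in that direction). H2-Q7 was lower, at -1.07 ± 0.13 (adjusted p = 4.56e-06), H2-Q4 at -0.90 ± 0.11 (adjusted p = 1.00e-05), Tap2 at -0.81 ± 0.14 (adjusted p = 0.000177) and Tapbp at -0.62 ± 0.11 (adjusted p = 0.000135), on the log2 scale. B2m was higher by 0.44 ± 0.10 (adjusted p = 0.00130) and Nlrc5 by 0.34 ± 0.10 (adjusted p = 0.0101). H2-K1, H2-D1, H2-T23 and Tap1 lay between -0.23 and -0.03 and did not pass. With length and GC trends removed, H2-Q7 was at -0.88 and still called, Tapbp at -0.13 and B2m at 0.14 were not called, and Tap1 (0.38) and H2-D1 (0.28) were called higher.

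With RNY1-/- fluid, 3 genes were called lower with ProteinFx than with EVFx (14.1% of all genes) and 0 higher (15.1% of all genes; also 0 at an unadjusted p under 0.05 and with DESeq2, but 2 without RNY1-/- ProteinFx replicates 3 and 4), and 1 was a DEG (4.06% of all genes). H2-Q7 was again at the low end, at -1.12 ± 0.16 (adjusted p = 0.000190), followed by H2-Q4 at -0.56 ± 0.18 (adjusted p = 0.0367) and H2-D1 at -0.37 ± 0.11 (adjusted p = 0.0243). Without RNY1-/- ProteinFx replicates 1 and 2, 5 genes were called lower and 0 higher, and without replicates 3 and 4, 2 were called lower and 2 higher, H2-T23 (0.72) and Tapbp (0.49). The share of all genes called in these refits is not given here, so the counts cannot be judged as many or few. The calls of H2-Q4 and H2-D1 were lost on leaving out any 1 of 5 and of 3 libraries. H2-T23 stood at 0.44 ± 0.21 (adjusted p = 0.148). With the replicate number as a block, which paired these libraries, H2-T23 was called higher at 0.41.

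Other genes of the pathway were counted from lists of known function. The share of all genes called lower against PBS is not given here. Counts of list genes that fell against PBS therefore cannot be judged as many or few. Of 20 further class I heavy chain and class I-like genes, 10 could be tested with RNY1+/+ EVFx, of which 7 rose and 2 fell against PBS, where 21.7% of all genes were called higher (median log2 fold change 1.73, against -0.03 for all genes). H2-M2, a nonclassical heavy chain gene at the far end of the complex, exceeded every member. It was at 5.33, 2.01, 4.57 and 3.02 CPM in PBS and at 539, 468, 800 and 869 CPM with RNY1+/+ EVFx, a log2 fold change of 7.70. With RNY1+/+ ProteinFx it held 229, 206, 286 and 488 CPM, and with RNY1-/- ProteinFx 145, 93.7, 112 and 134 CPM, without overlap. Between the source genotypes in ProteinFx it differed by -1.41, the largest among the class I heavy chain genes tested, and H2-M3 was also called lower at -0.39 and Hfe, an iron regulator of class I fold, higher at 0.82. In EVFx the same comparison had H2-M2 at -0.32, not called, H2-Q6 at -1.08 and H2-T10 at -0.52 called lower, and Cd1d1, which presents lipids, called higher at 0.52, of 9 tested. Of all genes 26.6% were called lower there and 25.5% higher. H2-Q6 was also higher by 4.67 with RNY1+/+ EVFx than with PBS. H2-T22 rose by 2.53 with RNY1+/+ EVFx and 2.44 with RNY1+/+ ProteinFx, and Fcgrt, the neonatal Fc receptor, which recycles antibody and does not present peptide, fell by 2.44 with the first and fell by 2.66 with the second on the log2 scale.

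A list for PA28 activators and the immunoproteasome, which cuts peptides for class I, held 7 genes, among them Psme3 and Pomp. Of the 7, 5 rose with each fraction and none fell, against 16.8% to 27.6% of all genes called higher in these comparisons. With RNY1+/+ EVFx, Psme2 rose by 2.21, Psmb8 by 1.76, Psme1 by 1.62 and Psmb10 by 1.5 (log2). Psmb9, another of the 3 inducible catalytic subunits, starts beside Tap1 on the opposite strand, and their RefSeq windows share 275 bases. Psmb9 rose by 1.28 with RNY1+/+ EVFx and 1.45 with RNY1+/+ ProteinFx, and Tap1 by 2.14 and 2.1.

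The 3 catalytic subunits that the inducible ones replace, Psmb5, Psmb6 and Psmb7, were all called higher with RNY1+/+ EVFx (median 0.88), where 21.7% of all genes were. None was with RNY1+/+ ProteinFx (median -0.28), where 25.9% of all genes were. Between RNY1+/+ ProteinFx and RNY1+/+ EVFx all 3 were called lower, where 32.2% of all genes were and GC content moved with fold change. In EVFx, 6 of the 7 genes of the list above (Psme3 at -0.67, Psmb8 at -0.66, Pomp at -0.47, Psmb10 at -0.45, Psme2 at -0.43 and Psme1 at -0.41) and 3 of these 3 (-0.44 to -0.41) were called lower with RNY1-/- than with RNY1+/+ fluid, where 26.6% of all genes were and GC content moved with fold change. In ProteinFx 0 of the genes of either list were called, where 2.19% of all genes were called higher and 3.36% lower.

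Of 13 genes of peptide loading and trimming in the endoplasmic reticulum, 3 rose and 2 fell with RNY1+/+ EVFx, near the 21.7% of all genes called higher, and 3 rose and 5 fell with RNY1+/+ ProteinFx, where 25.9% of all genes were called higher. Tapbpl, a relative of tapasin that edits peptides, rose by 1.63 and 1.40, and Erap1, which trims peptides to length, by 1.12 and 1.63. The chaperones differed among themselves, as Hspa5 was called at 0.63 with RNY1+/+ EVFx and stood at 0.02 with RNY1+/+ ProteinFx, Canx at 0.25, not called, and 0.58, called, and Calr at 0.30, not called, and -0.80, called. Between the genotypes in EVFx, Calr (-0.83), H13 (-0.75), Sec61a1 (-0.51), Ganab (-0.49), Pdia3 (-0.47) and Hspa5 (-0.21) were called lower with RNY1-/- fluid, and Spcs1 (0.53), Canx (0.38), Sec61b (0.38) and Erap1 (0.35) higher. All 13 were tested in that comparison, where 26.6% of all genes were called lower and 25.5% higher. Of 6 cytosolic peptidases, 5 could be tested, of which 2 rose with RNY1+/+ EVFx, and 2 rose and 1 fell, Blmh at -1.35, with RNY1+/+ ProteinFx. Between the genotypes in EVFx, Blmh was called lower (-0.77) and Tpp2 higher (0.47), of 5 peptidases tested against the same shares of all genes.

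Of 17 transcription factors that bind class I promoters, 16 could be tested with RNY1+/+ EVFx, of which 7 rose and 1 fell (21.7% of all genes were called higher), and 15 with RNY1+/+ ProteinFx, of which 8 rose and 2 fell (25.9% of all genes were called higher). Stat2 rose by 2.23 and 2.36 and Irf1 by 1.65 and 1.47 in those comparisons, while Irf8 was lower, at -0.97 and -1.1. The 2 NF-kB subunits listed went opposite ways with RNY1+/+ ProteinFx, Rela at -1.27 and Nfkb1 at 1.1, both called, and neither was called with RNY1+/+ EVFx (-0.09 and 0.34). Between the genotypes in EVFx, Rela (-1.07), Irf1 (-0.52), Irf8 (-0.40) and Irf9 (-0.28) were called lower with RNY1-/- fluid, and Atf1 (0.69), Creb1 (0.48), Nfkb1 (0.46) and Irf2 (0.40) higher. In that comparison 15 factors were tested, and 26.6% of all genes were called lower and 25.5% higher.

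Of 12 genes of the class II pathway, 9 could be tested with RNY1+/+ EVFx, of which 5 rose and 1 fell, against 21.7% of all genes called higher. In EVFx, 6 of 8 tested were called lower with RNY1-/- than with RNY1+/+ fluid and 2 higher (median -0.61, with 26.6% of all genes called lower and 25.5% higher). The lower ones were Cd74 (-1.04), H2-Eb1 (-0.90), H2-DMb1 (-0.76), H2-Aa (-0.62), H2-Ab1 (-0.61) and Ifi30 (-0.37), and the higher ones Ctss (0.50) and Marchf1 (0.30). In ProteinFx, H2-Eb1 (0.85) and Ifi30 (0.72) were called, both higher with RNY1-/- fluid (2.19% of all genes). The genotype difference in ProteinFx minus that in EVFx was called above 0 for 7 of 9 class II genes and below 0 for 1, where 33.0% of all genes were called in either direction. Of 6 macrophage receptors that bind class I, 4 could be tested, and Lilrb4a rose by 1.09 with RNY1+/+ EVFx while Lilra6 fell by 1.87. Between the genotypes in EVFx, Pirb was called lower (-0.61), and Pira2 (0.45) and Lilrb4a (0.39) higher, of 4 tested (26.6% of all genes were called lower and 25.5% higher).

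Among 7454 genes of at least 10 CPM on average, those whose log2 CPM over the 20 libraries was most like the mean z-score of the 10 members were H2-T22 (Pearson r = 0.985), Oasl1 (0.981), Isg15 (0.981), Mlkl (0.978) and Gsdmd (0.975). For Nlrc5 alone they were Phf11b (0.992), Gm12250 (0.992), Ifi214 (0.991), Parp12 (0.991) and Pnp (0.989). These values largely describe the step from PBS to any fraction, which the libraries of a group share. Among the members themselves, r was highest for Tap1 with Nlrc5 (0.978) and H2-K1 with H2-Q7 (0.976), and lowest for B2m with Tap2 (0.197).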

How the data were processed

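RNA of 20 BMDM libraries, 4 for each of 5 groups taken from the labels, was sequenced from 3′ ends with oligo(dT) priming and molecular identifiers, so counts measure transcript ends and are not scaled by length. Per the submitters' processing notes the tools included fastp 0.24.0, STAR 2.7.11, SAMtools 1.22.1, Subread 2.1.1 with featureCounts, FastQC 0.12.1, MultiQC 1.32 and edgeR 4.0.16, on GRCm39. The authors deposited expected counts, strand-specific and fractional where a read maps to several genes (23.6% to 26.3% of detected genes), and CPM, which equals each count divided by its library total. Totals were 2510005 to 8277366. P-values and intervals of the fits cover only the spread among these libraries.

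Counts were rounded to whole numbers, genes with a mean of at least 3 CPM that passed filterByExpr were kept, and edgeR 4.0.16 (R 4.3.3) was run with TMM scaling and its quasi-likelihood test on the libraries of each comparison, with Benjamini-Hochberg adjustment over all genes tested. The scripts were tested on simulated data. Alternatives were DESeq2 1.42.0, scaling by library totals or by 3 housekeeping genes (Cltc, Rab14, Arpc2), other filters, 1 fit over 20 libraries, thinned or unrounded counts, a replicate block, removal of length and GC trends by splines of 4 degrees of freedom, and each library left out. The study had picked the 3 housekeeping genes from these same data. They changed little between PBS and RNY1+/+ ProteinFx and between the genotypes in ProteinFx, so scaling by them is not an independent check. Log2 CPM had a prior count of 2 (edgeR). Transcript length and GC content came from GENCODE annotation of GRCm38, and promoter windows from RefSeq GRCm38.p6, another build than that of the counts.

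Replicate numbers are shared across groups. By the correlation of same-numbered libraries' deviations from their group means, all 4 pairs exceeded 0.1 for RNY1-/- EVFx with PBS (0.1293 to 0.3803) and for RNY1-/- ProteinFx with RNY1-/- EVFx (0.2197 to 0.4001), so the block is given beside a call it changed there. This pairing comes from the data and not from the labels.

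The members and the pathway lists were chosen with earlier results of these data known. All 10 members are named in every comparison. Of each list, up to 4 called genes of largest absolute log2 fold change with RNY1+/+ EVFx or RNY1+/+ ProteinFx against PBS are named, and list genes called between source genotypes, and for likeness the 5 genes of highest r among those of at least 10 CPM. The values of 1 list gene that this rule would name are not reported here.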

Additional observations from a re-analysis of the deposited data

Results flagged for a closer look

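In 50 sets of 4 libraries (10 genes in 5 groups), 4 had 1 library farther from the rest than Dixon's criterion at the 95% level allows, where chance gives about 1 set in 20. For H2-Q7 the lowest RNY1-/- EVFx library (replicate 3, 48.9 CPM) had a gap of 0.8324 of the group's range. For H2-Q7 in RNY1+/+ ProteinFx the lowest library (replicate 3, 27.8 CPM) had a gap of 0.8369 of the range. For Tap1 and Tap2 in RNY1+/+ EVFx the lowest library was also replicate 3 (150 and 30.0 CPM), with gaps of 0.8295 and 0.8551.

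The difference between source genotypes differed between the fractions for B2m, by -0.36 (ProteinFx minus EVFx, log2), and for Tapbp, by 0.75, with edgeR's interaction test. Both calls were lost in part of the fits that left out 1 library, and both with length and GC trends removed.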

How the results depend on the processing

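Against PBS, the log2 fold changes of the 10 genes stayed above 0 in 779 of 780 fits of the alternatives, the exception being Tap2 with RNY1-/- ProteinFx at -0.21 without replicates 1 and 2 of that group, and 768 of 780 kept their side of the threshold. Across all comparisons, 1687 planned single-gene alternatives kept their side of the threshold, 43 gained a call and 56 lost one. A further 4 changed sign where either fit made a call. Sign changes without a call in either fit are counted as keeping their side. A fold change called in neither fit changed sign in 66 of 1870. With length and GC trends removed, H2-D1 and Tap1 turned to 0.28 and 0.38 in RNY1+/+ ProteinFx against RNY1+/+ EVFx (0.28 and 0.38 with the replicate block as well). Scaling by total counts lowered the median of all genes with RNY1+/+ EVFx against PBS from -0.03 to -0.21. Member DEGs against PBS under it were 8 (from 8) with RNY1+/+ EVFx, 6 (from 8) with RNY1+/+ ProteinFx, 5 (from 6) with RNY1-/- EVFx and 7 (from 7) with RNY1-/- ProteinFx.

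Without a fold threshold, 7 members passed between genotypes in EVFx, 6 between RNY1+/+ ProteinFx and RNY1+/+ EVFx and 3 between RNY1-/- ProteinFx and RNY1-/- EVFx. The 1 DEG of RNY1+/+ ProteinFx against EVFx, H2-Q7, fell to 0 with the trends removed, with or without the block, and without RNY1+/+ ProteinFx replicate 3 (range 0 to 1). That of RNY1-/- fluid fell to 0 with total counts and without RNY1-/- ProteinFx replicates 3 and 4. The interaction's 2 calls became 0 in 1 fit over 20 libraries, 1 with thinned counts, 0 to 4 on leaving out single libraries, 0 without RNY1-/- ProteinFx replicates 1 and 2, and 5 without replicates 3 and 4. The alternatives leaving out 2 replicates were chosen after seeing the data. The share of all genes called in these alternatives of the interaction is not given here, so their counts cannot be judged as many or few. The cause of these changes was not tested.

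The replicate block left member DEGs at 8, 8, 6 and 7 against PBS (in the order RNY1+/+ EVFx, RNY1+/+ ProteinFx, RNY1-/- EVFx, RNY1-/- ProteinFx). Where numbers did not pair the libraries, the block added the calls of Tap1 between genotypes in EVFx (-0.34) and H2-T23 in the interaction (0.63). Over all comparisons, 21 of 40 same-numbered pairs correlated above 0.1.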
